A study of Mus musculus with 10 samples.

Results

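The tripartite motif (TRIM) family was described in glomeruli, the filtering units of the kidney, of diabetic mice with and without Esm-1. Its members were taken as the rows of the deposited table whose symbol is Trim followed by digits, with or without one ending letter. This rule found 42 genes among 12934 rows, and no row whose name begins with Trim fell outside it. Of the 42 genes, 22 passed the filter on low values (a normalized count of at least 10 in at least 3 libraries) and were tested among 8239 genes, and 20 did not. The text below describes all 42, the 20 low genes by their reads.

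RNA sequencing was done on 10 libraries of glomeruli from wildtype DBA/2J mice, an inbred strain labelled as susceptible to diabetic kidney disease, at 17 weeks of age. The non-diabetic saline group (n = 3) received a hydrodynamic injection of saline, a fast injection of a large volume into the blood, at 7 weeks and the vehicle of streptozotocin from 8 weeks. The diabetic saline group (n = 4) received the same saline injection at 7 weeks, then low doses of streptozotocin, a toxin of insulin-producing cells, from 8 weeks, and from 4 weeks later a 60% high-fat diet for 5 weeks. The diabetic Esm-1 group (n = 3) was treated like the diabetic saline group, except that the injection at 7 weeks held plasmids for mouse Esm-1 and for the Sleeping Beauty transposase, which pastes transgenes into chromosomes. Endothelial cells secrete Esm-1, a proteoglycan also named endocan. Diabetes and the high-fat diet came together, so their parts cannot be told apart, and no group received Esm-1 without diabetes or a plasmid without Esm-1. The labels do not say whether each library came from 1 animal, so p-values measure the spread between these libraries, which may in part be technical.

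TRIM proteins share a RING finger, 1 or more B-boxes and a coiled coil, in that order, and most act as ubiquitin ligases through the RING finger. The domain that follows the coiled coil sets their classes. B30.2 (also PRY/SPRY) domains recognize other proteins or viral capsids, PHD fingers with bromodomains read histone tails, and NHL repeats bind RNA or protein. Several members are induced by interferons and either restrict viruses directly or adjust the signalling from RNA and DNA sensors, while the bromodomain members repress transcription in the nucleus.

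The promoters of the TRIM genes are shown first for the genes that the results turn on, because several of these genes are known to be induced by interferon. RefSeq promoters (250 bases before to 50 after a gene's start, build GRCm38.p6) were at hand for 32 of the 42 genes. The letters GAAA, any 2 bases and GAAA again, the core of the interferon-stimulated response element, were searched on both strands without a mismatch, and overlapping matches were counted as found. They stood in a promoter of 3.99% of all 27025 genes of the promoter table and of 7 of the 32 TRIM genes (21.9%), namely Trim30a, Trim30d, Trim12c, Trim34a, Trim21, Trim26 and Trim2. Trim30a, Trim30d, Trim12c and Trim34a lie in a single run of chromosome 7 that holds near copies. The 7 genes are therefore not separate finds, and the 21.9% is a description. Another set of letters, TTCNNNGAA (the core of the sites of STAT dimers), stood in a promoter of 9.55% of all genes and of 3 of the 32 TRIM genes (9.38%), which were Trim15, Trim45 and Trim46. A match is a description of the letters and not a site of binding. The sequences are those of the reference genome, and the DBA/2J alleles were not analysed here. The promoters of 3 genes that were higher in diabetic saline glomeruli (below) read as follows, 5′ to 3′ on the strand of the gene, with the matched letters in capitals; these stood on the opposite strand and therefore read as TTTC, 2 bases, TTTC.
Trim30a, chr7:104465144-104465443, minus strand: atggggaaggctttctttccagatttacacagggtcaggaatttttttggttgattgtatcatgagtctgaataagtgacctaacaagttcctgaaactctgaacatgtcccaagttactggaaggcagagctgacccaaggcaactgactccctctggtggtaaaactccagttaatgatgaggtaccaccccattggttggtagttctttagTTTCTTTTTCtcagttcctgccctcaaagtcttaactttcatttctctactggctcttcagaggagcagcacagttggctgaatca
Trim12c, chr7:104353300-104353599, minus strand: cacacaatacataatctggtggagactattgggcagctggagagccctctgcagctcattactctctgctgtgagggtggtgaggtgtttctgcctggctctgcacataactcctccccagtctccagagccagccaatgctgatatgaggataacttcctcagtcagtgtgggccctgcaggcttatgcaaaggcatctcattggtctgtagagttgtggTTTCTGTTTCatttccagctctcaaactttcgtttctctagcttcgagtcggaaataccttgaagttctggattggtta
Trim26, chr17:36836896-36837195, plus strand: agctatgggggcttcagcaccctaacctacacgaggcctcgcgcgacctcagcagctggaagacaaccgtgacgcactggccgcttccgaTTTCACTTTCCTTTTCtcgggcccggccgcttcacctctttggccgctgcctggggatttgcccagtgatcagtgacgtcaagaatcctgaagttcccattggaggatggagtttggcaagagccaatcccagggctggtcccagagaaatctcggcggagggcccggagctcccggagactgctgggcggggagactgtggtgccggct

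The Trim30a match began 36 bases before the start, the Trim12c match 29 bases before it, and the pair of overlapping matches of Trim26 160 bases before it. RefSeq lists another start of Trim30a, and its promoter held the same letters from base 2 after the start. Trim30d, the neighbour of Trim30a and its near copy, held TTTCTTTTTC as well, 41 bases before its start. Placed so that the matches met and compared without gaps, 276 of 295 bases of the Trim30a and Trim30d promoters were equal (93.6%). For the other start of Trim30a 113 of 257 were equal (44.0%). An inserted or missing base puts all bases beyond it out of step, so the 44.0% does not measure how alike those promoters are. In the other genes the match was TTTCAGTTTC in Trim34a, 10 bases after the start, TTTCCTTTTC in 1 promoter of Trim2, 28 bases after the start, and GAAACTGAAAGTGAAA, 2 overlapping matches on the gene's own strand, in Trim21, 13 bases after the start.

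Depth limits what can be said of the family. The libraries held 3931712 to 11300629 reads, of which the ribosomal precursor Rn45s with Lars2 and Mir6236 took 91.1% to 92.8%, so 338549 to 962321 reads remained for all other genes. The 42 TRIM genes together held 720 to 1897 reads per library. In normalized counts, 3 reads were worth 1.86 to 5.31. Esm1 itself was at 0 to 6.51 normalized counts over the 10 libraries, below the filter. A hydrodynamic injection mainly reaches the liver, so the glomerular level of Esm1 does not check the labels. The glomerular markers were well represented: the 12 podocyte markers summed to 5243 to 7833 normalized counts in non-diabetic saline, 3345 to 5612 in diabetic saline and 2286 to 3402 in diabetic Esm-1 libraries. The 11 endothelial markers summed to 2313 to 2861, 1565 to 2217 and 1173 to 1498 in the same order of groups. In bulk tissue, fewer cells of a type and less RNA per cell cannot be told apart.

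The family as a whole kept a similar level across the groups. Its summed normalized counts were 1165 to 1239 in non-diabetic saline (mean 1193 ± 40.2, SD, n = 3), 1195 to 1411 in diabetic saline (1300 ± 90.1, n = 4) and 1158 to 1222 in diabetic Esm-1 libraries (1188 ± 32.7, n = 3), and the 3 ranges overlapped. Within that sum the shares of single genes moved. Trim25 held 18.3% to 20.4% of the TRIM counts in non-diabetic saline, 16.5% to 22.3% in diabetic saline and 11.5% to 15.1% in diabetic Esm-1 libraries. In contrast, the 6 genes of a run of neighbours on chromosome 7 held 1.95% to 4.33%, 11.5% to 13.1% and 10.0% to 12.9%. The heat map of all 42 genes shows how few of the rows follow the groups.

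**Figure D1:**
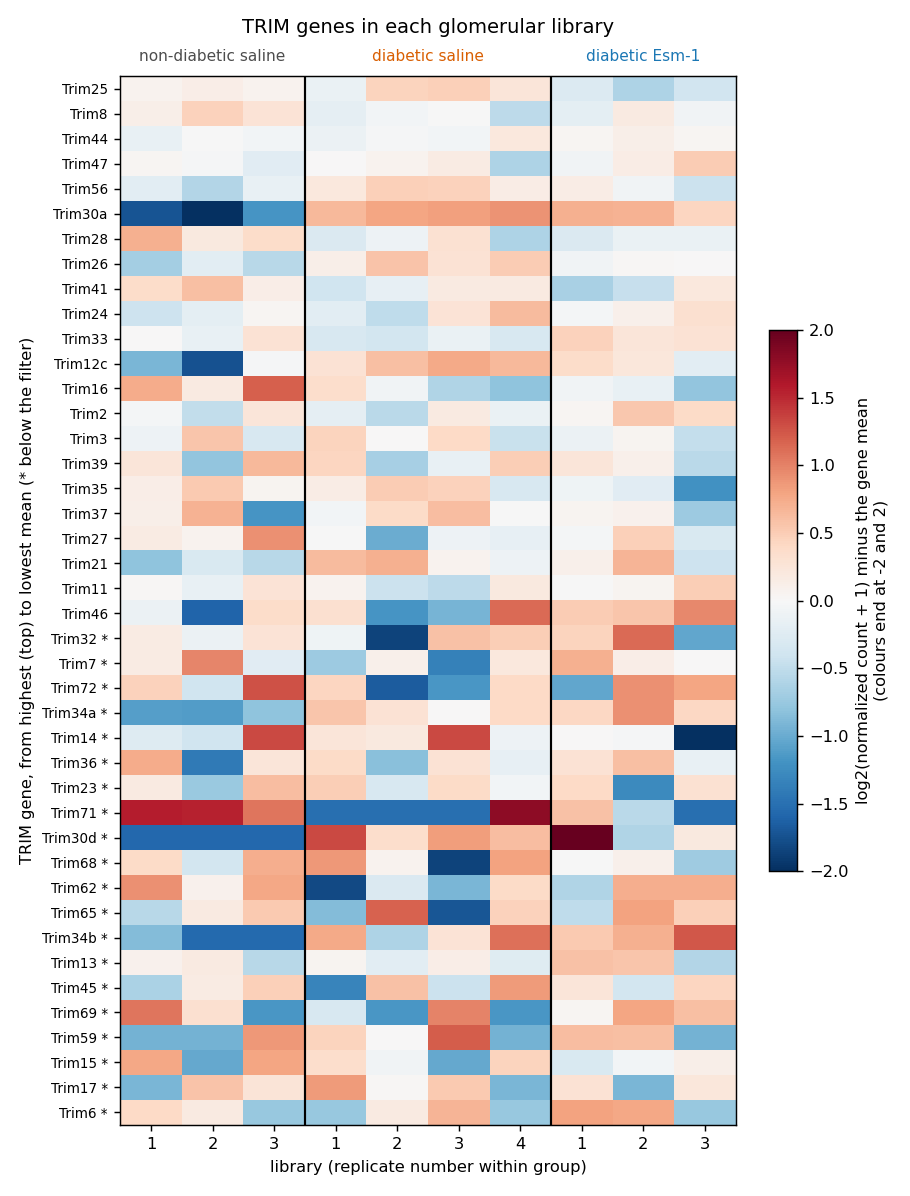
Each row is 1 TRIM gene and each column 1 library; colour gives log2(normalized count + 1) minus the gene's mean over the 10 libraries, and an asterisk marks the 20 genes below the filter. Trim30a, Trim12c, Trim34a, Trim34b and Trim30d are lower in the 3 non-diabetic columns than in most diabetic ones, while most other rows show no such blocks.

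Per kilobase of exon, the order of the genes in non-diabetic glomeruli began with Trim47, Trim8, Trim25, Trim28 and Trim44. Their mean levels were 43.7, 42.1, 40.1, 27.6 and 20.5 normalized counts per kilobase (exon lengths from GENCODE M21, not the authors' annotation). The first 3 differed by less than the spread of Trim47 between libraries, so their order carries no weight. Trim30a stood at rank 14 of the 42 in non-diabetic glomeruli, with 4.80 per kilobase, and at rank 4 in diabetic saline glomeruli, with 26.6. Trim12c moved from rank 15 (4.19 per kilobase) to rank 8 (10.8).

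Of these 5, Trim25 alone passed the threshold in any of the 3 comparisons below (limma, all libraries). Trim8, Trim28, Trim44 and Trim47 passed in none. Trim44, a member without a RING finger, had normalized counts of 109.0, 119.7 and 115.9 in non-diabetic saline, 111.2, 118.5, 116.3 and 139.9 in diabetic saline and 123.7, 130.6 and 124.5 in diabetic Esm-1 libraries. The groups of Trim44 differed by 0.08 on the log2 scale between diabetic and non-diabetic saline (95% interval -0.24 to 0.39). Trim47, a B30.2 member, ranged from 86.0 to 104.0, from 65.5 to 112.8 and from 95.7 to 143.7 in the same order of groups, which overlapped.

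The first comparison set diabetic saline against non-diabetic saline glomeruli and asked what diabetes with a high-fat diet changed. Of the 22 tested members, 4 rose (Trim30a, Trim12c, Trim26 and Trim56) and 0 fell at an adjusted p under 0.05 (limma, adjusted over all 8239 tested genes). Among all tested genes 3.73% rose and 1.81% fell, 5.53% together (6.28% in edgeR and 4.96% in DESeq2 on the recovered reads). The median log2 difference of the members was 0.03, beside -0.01 for all tested genes, and 11 of the 22 lay above 0. At an unadjusted p under 0.05 there were 8 members, beside 18.9% of all genes. The groups did not overlap for 5 members that were higher (the 4 and Trim21) and 2 that were lower (Trim8 and Trim27), beside 8.19% and 8.34% of all genes. Trim21 was below 10 in every non-diabetic library and passed the filter through diabetic libraries only.

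Trim30a, an interferon-inducible B30.2 protein that in mice dampens NF-κB signalling from Toll-like receptors, showed the largest difference of the 22. Its normalized counts were 16.7, 12.7 and 24.9 in non-diabetic saline, 90.4, 99.95, 102.5 and 108.0 in diabetic saline and 94.4, 93.4 and 77.8 in diabetic Esm-1 libraries. All 7 diabetic libraries lay far above the 3 non-diabetic ones. The rise in diabetic saline was 5.47-fold (log2 difference 2.45, SE 0.21, limma adjusted p = 1.09e-07), and it stayed past the threshold under all 22 alternatives, with adjusted p of at most 0.00014.

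Trim12c, a mouse relative of the retroviral restriction factor TRIM5, lies in the same run of genes. Its counts were 13.6, 7.26 and 26.2 in non-diabetic saline, 32.8, 40.7, 45.7 and 42.5 in diabetic saline and 34.5, 31.5 and 22.7 in diabetic Esm-1 libraries. Every diabetic saline library exceeded every non-diabetic one, but non-diabetic replicate 3 came close to them. The mean rose from 15.7 ± 9.63 to 40.4 ± 5.47, a 2.77-fold rise (log2 difference 1.47, SE 0.31, limma adjusted p = 0.00567). With a term for the mean log2 level of 32 markers of podocytes, endothelium and mesangium in the fit (the marker term), the adjusted p was 0.0570 and the log2 difference 1.78. Under the 21 other alternatives Trim12c passed. The marker mean was 7.29 to 7.47 in non-diabetic and 6.77 to 7.16 in diabetic saline libraries, without overlap. A fit with the marker term therefore cannot tell the markers from the group, for this or any other gene.

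Trim26, a ubiquitin ligase reported to act on IRF3, had counts of 36.5, 50.8 and 39.9 in non-diabetic saline, 64.0, 88.8, 72.4 and 85.0 in diabetic saline and 56.7, 60.1 and 59.9 in diabetic Esm-1 libraries. The diabetic Esm-1 libraries fell between the other groups, without overlap with either. Trim26 rose 1.81-fold in diabetic saline (log2 difference 0.86, SE 0.19, limma adjusted p = 0.00767). The call was lost without non-diabetic replicate 1 (adjusted p = 0.0546), without the 2 libraries of title numbers under 100 (0.0510) and with the marker term (0.0644, at a log2 difference of 1.04); the lowest adjusted p over the alternatives was 0.00503.

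Trim56, a ubiquitin ligase that acts in the signalling from cytosolic DNA and RNA, had counts of 65.6, 50.8 and 68.6 in non-diabetic saline, 88.8, 107.4, 105.9 and 85.0 in diabetic saline and 85.3, 72.5 and 56.3 in diabetic Esm-1 libraries. The diabetic saline libraries all lay above the non-diabetic ones, and the diabetic Esm-1 libraries spread over both ranges. The rise was 1.57-fold (log2 difference 0.65, SE 0.19, limma adjusted p = 0.0449). This call sat at the threshold: it was lost under 13 of the 22 alternatives, among them the removal of any 1 of the 3 non-diabetic libraries, of diabetic saline replicate 1, 2 or 3 or of diabetic Esm-1 replicate 2 (adjusted p from 0.0565 to 0.197).

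**Figure D2:**
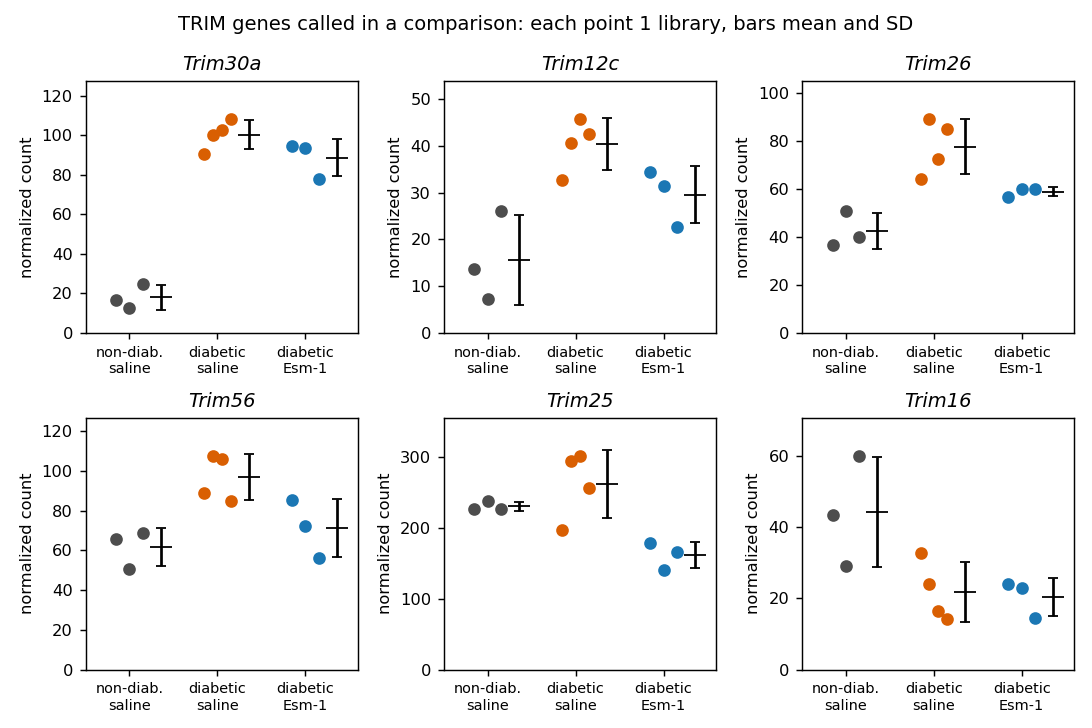
Normalized counts (vertical axes, from 0) of the 6 TRIM genes that passed the threshold in at least 1 comparison; each point is 1 library, the horizontal bar is the group mean and the vertical bar the SD (n = 3, 4 and 3). For Trim30a the non-diabetic points lie at 12.7 to 24.9 and all others at 77.8 to 108.0, while Trim25 is lowest in the diabetic Esm-1 group, at 141.1 to 178.4.

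The 4 genes that rose are all known to be linked to interferon. Of the 12 interferon-linked members in the table, 6 were tested (Trim25, Trim26, Trim56, Trim21, Trim12c and Trim30a): 4 rose, and all 6 lay above 0, with a median log2 difference of 0.87. Trim21 passed the filter through diabetic libraries only. Of the interferon-linked members below the filter, Trim34a, Trim34b and Trim30d were higher in every diabetic saline library than in any non-diabetic one. For Trim34b the lowest diabetic saline library (0.925) and the highest non-diabetic one (0.619) each held 1 read, so that gap is one of depth only. The share of all genes below the filter without such overlap is not given here. Trim14, Trim6 and Trim69 had read ratios of diabetic to non-diabetic saline of 1.33, 0.868 and 0.542, with overlapping groups. Of the 16 tested members outside the interferon-linked list 0 passed the threshold, 5 lay above 0 and 11 below. Being outside that list does not mean that a gene has no link to interferon. This division uses what was known of earlier results of these data and is a description. Trim21, a cytosolic receptor for antibodies, was 1 of the 2 that did not pass, with Trim25: its counts were 6.19, 9.07 and 7.48 in non-diabetic saline and 18.4, 19.4, 12.1 and 10.6 in diabetic saline libraries (log2 difference 0.88, SE 0.36, limma adjusted p = 0.176). Trim25, the ubiquitin ligase of the RNA sensor RIG-I had 227.2, 237.6 and 226.9 against 196.8, 294.3, 301.5 and 256.7, and these groups overlapped (log2 difference 0.17, SE 0.16, limma adjusted p = 0.616).

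By domain, 3 of the 12 tested B30.2 members rose (Trim30a, Trim12c and Trim26), and 0 of the 3 tested bromodomain members, 0 of the 2 with NHL repeats, and 0 of the single tested members with a COS box (Trim46) and a MATH domain (Trim37) passed the threshold. Of the 3 tested members with none of these domains (Trim8, Trim44 and Trim56), 1 rose. Of the tested members with a promoter entry, 5 held the letters of the interferon-stimulated response element: 3 of them rose, and their median log2 difference was 0.88. That median was the value of Trim21, which passed the filter through diabetic libraries only. Trim30a and Trim12c, among the 3 that rose, lie in the same run of chromosome 7 and are not fully separate cases. Of the 11 tested members with a promoter but without these letters 1 rose (Trim56), and the median was 0.08.

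Among the members that lay lower, Trim16, which lacks a RING finger and acts in the clearance of damaged membranes, had counts of 43.3, 29.0 and 59.8 in non-diabetic saline and 32.8, 24.1, 16.4 and 14.2 in diabetic saline libraries. The groups overlapped by 1 library on each side. The log2 difference was -0.99 (SE 0.30, limma adjusted p = 0.0592), and it passed the threshold in 4 of 22 alternatives, with a pseudocount of 5 (adjusted p = 0.0493), with a common total per library (0.0397), and without non-diabetic replicate 2 (0.0287) or diabetic saline replicate 1 (0.0313); over all alternatives it ran from 0.0287 to 0.425. Trim28, also called KAP1, the corepressor that KRAB zinc finger proteins recruit, had 108.3, 75.3 and 84.8 against 53.6, 61.1, 81.0 and 42.5. Its log2 difference was -0.60 (SE 0.21, limma adjusted p = 0.0963), which became 0.0429 (0.0429 to 0.660 over the alternatives) without diabetic saline replicate 3, the only diabetic saline library of Trim28 within the non-diabetic range. Trim8, a member reported to strengthen NF-κB signalling, had 133.7, 170.5 and 148.3 against 108.0, 118.5, 122.3 and 85.0, with no overlap (log2 difference -0.48, SE 0.17, limma adjusted p = 0.104).

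Genes that work with the TRIM proteins were read beside them. Of the 26 listed partners in RNA and DNA sensing, 20 were tested: 4 rose and 0 fell, and the median log2 difference was -0.00. The 4 were the RNA sensors Ddx58 (RIG-I itself, the target of Trim25; 2.77-fold, limma adjusted p = 6.49e-05), Ifih1 (4.73-fold, 5.62e-07) and Dhx58 (6.11-fold, 0.000538), and the transcription factor Irf7 (5.69-fold, 4.25e-08). A list of 32 interferon-stimulated genes, all tested, holds the same 4 genes, so these counts are not separate: 29 of the 32 rose, with a median of 1.99. Of 10 TRIM-type proteins that carry other symbols, 5 were tested and 1 rose: Pml, the organizer of nuclear bodies, from 56.6 ± 10.7 to 112.4 ± 29.0 (1.94-fold, log2 difference 0.96, SE 0.20, limma adjusted p = 0.00591). Of 14 tested chromatin partners of the bromodomain members, 1 fell, the retinoic acid receptor Rara, to which Trim24 binds (log2 difference -1.09, SE 0.24, limma adjusted p = 0.00939), and 0 rose.

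Leukocytes also express several of these TRIM genes, and their markers were followed beside them. Only 7 of the 15 listed leukocyte symbols had a row; Cd4, Cd8a, Nkg7 and S100a8 were among those with none, as was Adgre1, which was present under its older symbol Emr1. The 7 genes summed to 28.1 to 53.2 normalized counts in non-diabetic saline, 31.0 to 41.6 in diabetic saline and 27.5 to 43.9 in diabetic Esm-1 libraries, ranges that overlapped (exact two-sided permutation p = 0.857 for diabetic against non-diabetic saline, 0.943 and 0.8 for the other comparisons, before adjustment over 24 such sums). Ptprc, the pan-leukocyte marker, was at 0 to 4.33, 2.58 to 7.08 and 1.91 to 8.46. Cd3e, the T cell marker among the 7, went the other way: it was at 9.97 to 22.3 in non-diabetic saline, 0 to 5.55 in diabetic saline and 0 to 10.5 in diabetic Esm-1 libraries, so the sum holds markers that differ in direction. Both are low, with 45 reads of Ptprc and 85 of Cd3e over all libraries. The part of leukocytes in the TRIM differences was not tested. Markers of the distal nephron, a part of the tubule outside the glomerulus, summed to 1211 to 3136, 2699 to 4319 and 2801 to 5593, ranges that overlapped. The exact two-sided permutation p was 0.143 for diabetic against non-diabetic saline, and 0.286 and 0.2 for the other comparisons, before adjustment. Singly, 5 of the 7 markers were higher in limma in each comparison with non-diabetic saline, and 0 were lower. Of the 12 podocyte markers, 4 were lower in diabetic saline and 10 in diabetic Esm-1 glomeruli, and 0 were higher. Of the 11 endothelial markers, 2 and 10 were lower and 0 were higher. Of the 9 tested mesangial markers, 1 and 4 were lower and 1 and 0 higher. The part of the tubule and of these glomerular cells in the TRIM differences was not tested.

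The second comparison set diabetic Esm-1 against diabetic saline glomeruli and asked what the Esm-1 plasmid changed under diabetes. None of the 22 members passed the threshold in limma, and neither did any of the 8239 tested genes (0%), although 899 genes (10.9%) and 4 members had an unadjusted p under 0.05. edgeR on the recovered reads also called 0 genes, and DESeq2 called 30 (0.364%), of which 1 was a TRIM gene, Trim25. Of the 22, 9 lay above 0 and 13 below, with a median log2 difference of -0.07, beside 0.00 for all tested genes. The groups did not overlap for 1 member that was higher (Trim33) and 2 that were lower (Trim25 and Trim26), beside 3.73% and 5.47% of all genes.

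Trim25 had the lowest p. Its counts were 196.8, 294.3, 301.5 and 256.7 in diabetic saline and 178.4, 141.1 and 166.4 in diabetic Esm-1 libraries. Every diabetic Esm-1 library lay below every library of both other groups. The mean was 262.3 ± 47.9 in diabetic saline and 162.0 ± 19.0 in diabetic Esm-1 glomeruli (log2 difference -0.68, SE 0.16, 95% interval -1.01 to -0.35, unadjusted p = 0.000302, limma adjusted p = 0.136). The adjusted p was 0.0228 in DESeq2 and 0.0282 in limma without diabetic saline replicate 1, the lowest of its group, and it was at most 0.998 under the other alternatives. The mean of 32 podocyte, endothelial and mesangial markers was 6.77 to 7.16 on the log2 scale in diabetic saline and 6.30 to 6.66 in diabetic Esm-1 libraries. With that mean as a term in the fit the log2 difference of Trim25 was -0.29. The marker mean did not overlap between these groups, so this fit cannot tell the term from the group. The part of these cell types in the Trim25 difference was not tested.

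The tested interferon-linked members lay lower with Esm-1 in 6 of 6 cases, with a median log2 difference of -0.41, and 0 passed the threshold. This comparison and the first share the diabetic saline libraries, whose values enter them with opposite signs. Genes read in the same libraries are not separate observations. Neither this count nor that of the interferon-stimulated genes below is therefore a test. For Trim26 the log2 difference was -0.38 (limma adjusted p = 0.474), for Trim56 -0.45 (0.370) and for Trim12c -0.45 (95% interval -1.09 to 0.19, 0.640). For Trim30a it was -0.18 (95% interval -0.61 to 0.25, limma adjusted p = 0.798); the interval includes 0 and a fall larger than the estimate. Of the 32 interferon-stimulated genes, 32 of 32 lay below 0, with a median of -0.35, and 0 passed the threshold. Their summed counts were 944 to 1280 in non-diabetic saline, 3503 to 5081 in diabetic saline and 3030 to 3667 in diabetic Esm-1 libraries. Cell type markers also lay to one side in this comparison, with 0 past the threshold: 12 of 12 podocyte markers (median log2 difference -0.71) and 11 of 11 endothelial markers (-0.43) lay below 0, and 8 of 8 proximal tubule markers above it (0.76). Their part in the interferon-linked values was not tested. All 20 partners in sensing also stayed short of the threshold.

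Trim33, a bromodomain protein that binds SMAD proteins of the TGF-β pathway, had 24.8, 24.1, 28.4 and 24.8 in diabetic saline and 43.6, 37.2 and 38.3 in diabetic Esm-1 libraries. The 3 diabetic Esm-1 libraries all lay higher, and the non-diabetic libraries, at 31.6, 28.1 and 38.6, reached into the diabetic saline and the diabetic Esm-1 range. The log2 difference was 0.62 (SE 0.21, 95% interval 0.18 to 1.06, limma adjusted p = 0.270). Trim2, an NHL ligase known for its action on neurofilaments, had 23.997, 18.5, 31.0 and 24.8 against 28.0, 40.05 and 35.9, with overlap (log2 difference 0.49, SE 0.25, limma adjusted p = 0.498).

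**Figure D3:**
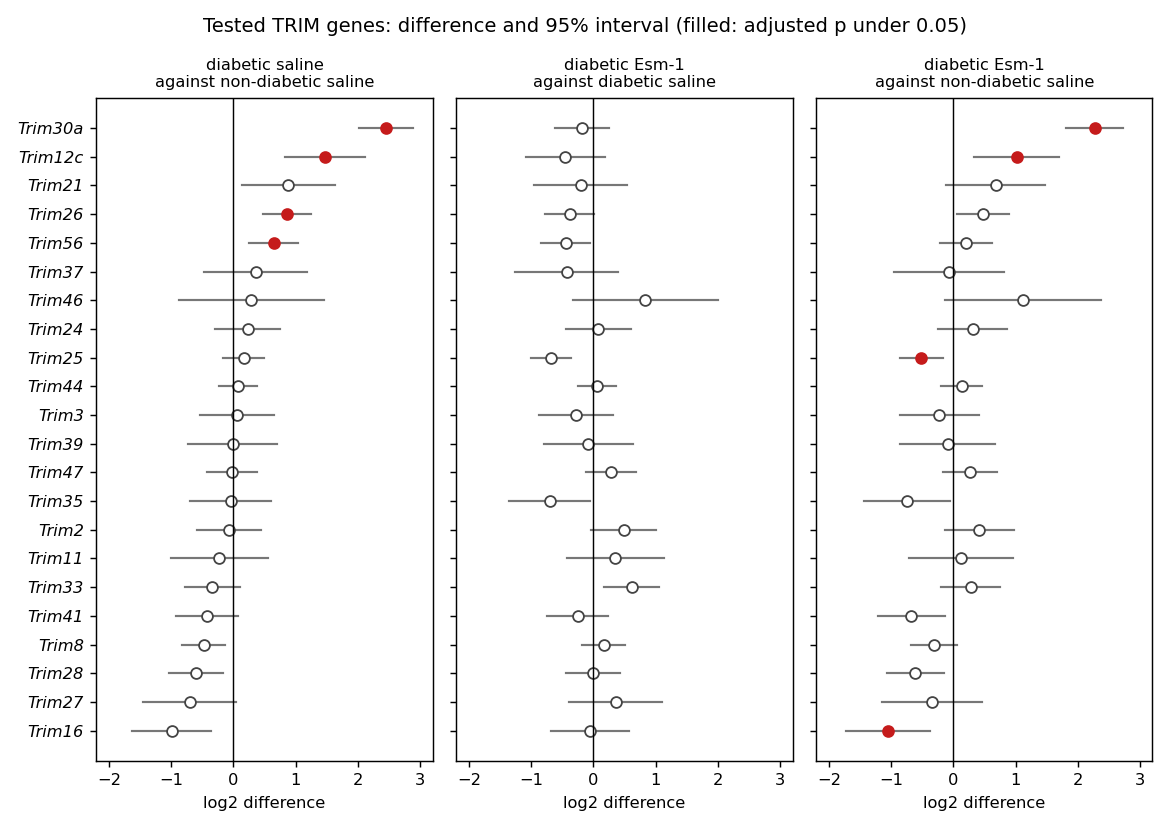
Log2 difference (points) with its 95% interval (lines) from limma for each of the 22 tested TRIM genes in the 3 comparisons, ordered by the first; filled points passed an adjusted p of 0.05. The 4 filled points of the left panel are Trim30a, Trim12c, Trim26 and Trim56, the middle panel has none, and the right panel has Trim30a and Trim12c above 0 and Trim25 and Trim16 below 0.

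The third comparison set diabetic Esm-1 against non-diabetic saline glomeruli and shares libraries with both others. Here 2 members rose (Trim30a and Trim12c) and 2 fell (Trim16 and Trim25), beside 7.19% and 8.11% of all tested genes, 15.3% together (15.7% in edgeR and 12.6% in DESeq2). The median log2 difference of the 22 was 0.13, beside 0.01 for all tested genes, and 12 lay above 0. The groups did not overlap for 4 members that were higher (Trim30a, Trim26, Trim46 and Trim44), beside 15.4% of all genes, and for 4 that were lower (Trim16, Trim25, Trim28 and Trim35), beside 17.4%. Trim46 was below 10 in every non-diabetic library and passed the filter through diabetic libraries only.

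Trim30a rose 4.83-fold (log2 difference 2.27, SE 0.22, limma adjusted p = 2.48e-06), with 77.8 to 94.4 normalized counts in diabetic Esm-1 and 12.7 to 24.9 in non-diabetic libraries. With the marker mean as a term the adjusted p was 0.0556 and the log2 difference 2.56. The marker mean did not overlap between these groups, so that fit cannot tell the term from the group. Under the 21 other alternatives Trim30a passed. Trim12c rose 2.03-fold (log2 difference 1.02, SE 0.33, limma adjusted p = 0.0396), but the groups overlapped: diabetic Esm-1 replicate 3, at 22.7, lay below non-diabetic replicate 3, at 26.2. That call was lost under 9 of the 22 alternatives. Among them were the fits without non-diabetic replicate 1 or 2 or without any 1 diabetic Esm-1 library (limma adjusted p from 0.0543 to 0.228). The others were a common total (0.0547), no trend (0.0981), the 2 groups only (0.0765) and the marker term (0.740).

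Trim25 fell from 230.6 ± 6.10 to 162.0 ± 19.0 (log2 difference -0.51, SE 0.17, limma adjusted p = 0.0429). Trim25 did not pass in edgeR (adjusted p = 0.0581) or DESeq2 (0.0649), nor without any 1 non-diabetic library or without diabetic Esm-1 replicate 2 or 3 (0.0826 to 0.195), and with the marker mean as a term its difference changed sign, to 0.20. The marker mean was 7.29 to 7.47 in non-diabetic libraries and did not overlap with the 6.30 to 6.66 of the diabetic Esm-1 group. The fit with the term therefore cannot tell the markers from the group, and their part in Trim25 was not tested. Trim16 fell from 44.1 ± 15.4 to 20.4 ± 5.30, with 24.1, 22.9 and 14.4 in the diabetic Esm-1 libraries, all below the lowest non-diabetic one (log2 difference -1.05, SE 0.32, limma adjusted p = 0.0333). The Trim16 call was lost under 7 of the 22 alternatives. Without non-diabetic replicate 1 or 3, or without diabetic Esm-1 replicate 2 or 3, its limma adjusted p was 0.0661 to 0.179. It was 0.0830 without the trend, 0.106 without the 2 libraries of title numbers under 100 and 0.833 with the marker term.

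Among the members that did not pass, Trim41, a ubiquitin ligase of protein kinase C, had 48.3, 57.1 and 41.1 in non-diabetic and 23.4, 26.7 and 43.1 in diabetic Esm-1 libraries. Diabetic Esm-1 replicate 3 alone stood within the non-diabetic range, and without it the adjusted p of 0.0819 became 0.0359, within 0.0359 to 0.789 over the alternatives (log2 difference of all libraries -0.67, limma). Trim28 had 53.4, 60.1 and 59.9 in the diabetic Esm-1 libraries, all below the 75.3 to 108.3 of the non-diabetic group (log2 difference -0.61, limma adjusted p = 0.0697), and edgeR gave an adjusted p of 0.0403 (0.0301 to 0.969 over the alternatives). Trim26 differed by 0.48 (limma adjusted p = 0.121).

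Of the 20 tested partners in sensing, 4 rose: Irf7 (4.23-fold), Ifih1 (3.77-fold), Dhx58 (3.42-fold) and Ddx58 (2.08-fold). This comparison and the first share their control libraries. Of the proteins with other symbols Mid1, a microtubule-bound TRIM ligase, fell (log2 difference -0.76, SE 0.24, limma adjusted p = 0.0383), and of the chromatin partners Rara (-1.22, 0.00298) and Atf7ip (-0.88, 0.0314), a cofactor of the histone methyltransferase Setdb1, fell.

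Trim30a, Trim12c and 4 further members of the table lie side by side on chromosome 7. In the RefSeq order of GRCm38 the run is Trim6, Trim34a, Trim5, Trim12a, Trim34b, Trim12c, Gm38525, Trim30b, Trim30c, Trim30a and Trim30d, with olfactory receptor genes on both sides. Of its 10 TRIM genes 6 had a row; Trim5, Trim12a, Trim30b and Trim30c were not analysed here. The 6 genes summed to 22.7 to 53.6 normalized counts in non-diabetic saline (mean 36.8 ± 15.6), 142 to 166 in diabetic saline (155 ± 11.1) and 116 to 152 in diabetic Esm-1 libraries (137 ± 18.7). All 7 diabetic libraries lay above all 3 non-diabetic ones. Most of that sum was Trim30a and Trim12c. Some genes of the run are near copies, and how the authors' counting divided reads among them is not given in the sources used here. The split between Trim30a and Trim30d, or Trim34a and Trim34b, is therefore uncertain.

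**Figure D4:**
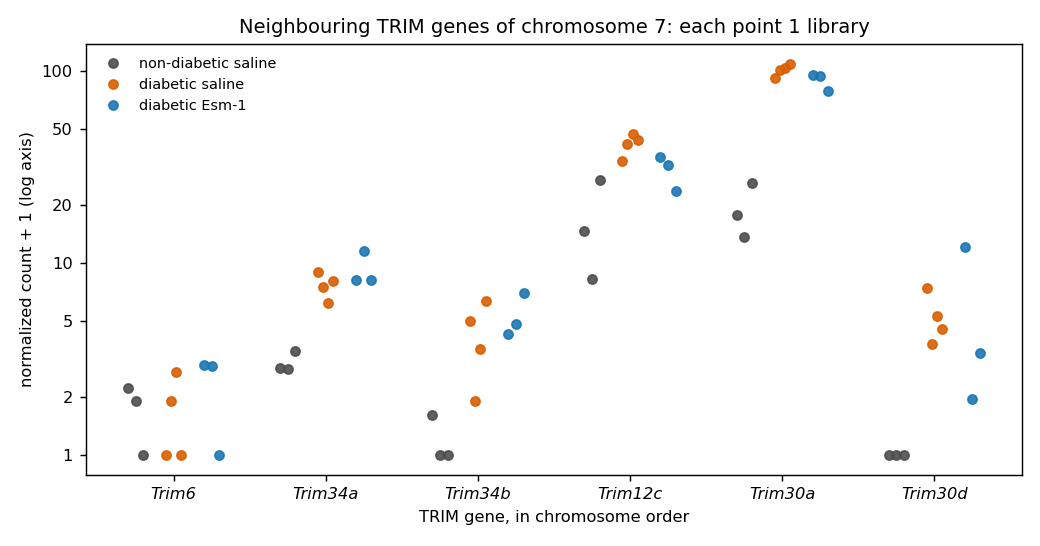
Normalized count + 1 (vertical log axis) of the 6 neighbouring TRIM genes of chromosome 7 that have a row, in chromosome order; each point is 1 library. In Trim34a, Trim34b, Trim30a and Trim30d every diabetic point lies above every non-diabetic one, in Trim12c all but 1 diabetic point do, and Trim6 stays at 0 to 1.95 normalized counts throughout. The nearest Trim34b points of the non-diabetic and diabetic saline groups stand for 1 read each.

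The low genes of the run were read from counts, with intervals that cover counting error only. Trim34a had 1.86, 1.81 and 2.49 normalized counts in non-diabetic saline, 7.999, 6.48, 5.17 and 7.08 in diabetic saline and 7.16, 10.5 and 7.18 in diabetic Esm-1 libraries. These were 7, 27 and 28 reads per group, ratios to the non-diabetic group of 3.35 (95% interval 1.42 to 9.10) and 4.12 (1.76 to 11.2). Trim34b had 1, 12 and 14 reads, with ratios of 10.4 (1.54 to 445) and 14.4 (2.19 to 609). Trim30d was at 0 in all 3 non-diabetic libraries, at 6.399, 2.78, 4.31 and 3.54 in diabetic saline and at 11.1, 0.954 and 2.39 in diabetic Esm-1 libraries. Its 18 and 20 reads were, per unit of depth, 5.21-fold and 6.86-fold the floor of 3 reads over the non-diabetic group. These folds leave out the counting error of the 18 and 20 reads. With it, the lower 95% bounds of the ratios to the non-diabetic group were 3.82 and 5.08. Of the 20 reads 17 came from diabetic Esm-1 replicate 1, and the 3 left without it are no more than the floor. The diabetic Esm-1 fold and bound therefore rest on that library. A limma fit without the filter gave Trim30d an adjusted p of 0.0242 for diabetic saline and 0.0372 for diabetic Esm-1 glomeruli, each against the non-diabetic group, and with a filter on a mean of at least 3 these were 0.0517 and 0.0638. For Trim34a the fit without the filter gave 0.0996 and 0.0295, and for Trim34b 0.102 and 0.0227 (limma).

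The other genes below the filter were Trim32, Trim7, Trim72, Trim14, Trim36, Trim23, Trim71, Trim68, Trim62, Trim65, Trim13, Trim45, Trim69, Trim59, Trim15, Trim17 and Trim6. The 20 low genes held at most 77 reads over all 10 libraries, and the 22 tested ones at least 92. In all, 29 of the 42 members had a read in every library. Trim14, an adaptor of the mitochondrial antiviral protein MAVS, had 3.10, 2.72 and 11.2 normalized counts in non-diabetic saline, 4.80, 4.63, 11.2 and 3.54 in diabetic saline and 3.91, 3.81 and 0 in diabetic Esm-1 libraries, so both saline groups held 1 high library. Trim71, an RNA-binding NHL protein of stem cells that is named here after its values were seen, had 7.43, 7.26 and 4.99 in non-diabetic saline, 0, 0, 0 and 8.85 in diabetic saline and 3.26, 0.954 and 0 in diabetic Esm-1 libraries. Its 5 reads in diabetic saline against 24 in non-diabetic saline gave a ratio of 0.181 (95% interval 0.0539 to 0.483), and all 5 came from replicate 4.

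Of the classes with 1 tested member, Trim46, which organizes microtubules in axons, had 6.81, 1.81 and 9.97 in non-diabetic saline, 9.60, 2.78, 3.45 and 17.7 in diabetic saline and 11.1, 11.4 and 15.6 in diabetic Esm-1 libraries. Trim37, a ligase that controls the number of centrioles, had 13.6, 20.9 and 4.99, then 11.999, 16.7, 19.8 and 12.4, then 13.0, 13.3 and 7.18. The spread within groups was as wide as the distance between them for Trim37. Trim35, chosen after its values were seen, was at 14.2 to 25.9 in diabetic saline and 7.18 to 16.9 in diabetic Esm-1 libraries (log2 difference -0.70, SE 0.31, limma adjusted p = 0.415).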

How the data were processed

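Total RNA of isolated glomeruli was sequenced in 10 libraries. Per the submitters' processing notes, the authors used Trimmomatic 0.36, STAR 2.5.3a, the mm9 build and DESeq2 1.28.1 in R 4.0.2; which counter, annotation and strand setting made the counts is not given in the sources used here. The deposited signal values are normalized counts that the authors made from the reads, in 1 table of 12934 genes. Each library's values were whole multiples of what 1 of its reads was worth in 100% of 129340 values (tolerance 0.001), which gave back the reads. Reads from near copies, overlapping or antisense genes cannot be told apart here, and whether DBA/2J variants lowered mapping was not tested.

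Values were analysed as log2(normalized count + 1), and folds on this scale understate changes of low genes. Genes with at least 10 in at least 3 libraries (8239) entered 1 limma 3.58.1 fit (R 4.3.3) with an intensity trend over all 10 libraries, without covariates. Benjamini-Hochberg adjustment ran over all tested genes, two-sided, with a threshold of 0.05. On the recovered reads, edgeR 4.0.16 (quasi-likelihood, TMM) and DESeq2 1.42.0 were run; these, other pseudocounts, filters and scalings, and leaving out libraries were alternatives. The fit was also run on simulated data in which genes varied independently, and no result here rests on that run. Low genes were compared as reads per unit of depth with exact conditional Poisson intervals (95%), and summed markers by exact permutation, which allows no p below 0.0286 for 4 against 3 libraries and 0.1 for 3 against 3.

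The members and all gene lists were chosen with earlier results of these data known. Members were named in full if they passed the threshold; also named were, per comparison, up to 3 others with the largest difference and a mean of at least 20, the 3 with the highest mean, the tested member of highest mean per domain class, and members at 0 in a library of 1 group and above 10 in another. Names matched RefSeq for 42 of 42 members; its GRCm38 coordinates were used for promoter sequences only. Replicate numbers follow the order of the records and pair no libraries.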

Additional observations from a re-analysis of the deposited data

Results flagged for a closer look

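In the group of 4 diabetic saline libraries, the values of the TRIM genes described library by library above, and of the summed TRIM and marker genes, were searched for a library far from the rest, by whether its gap to the nearest library as a share of the range exceeded Dixon's 95% critical value. Chance alone marks about 1 in 20 such sets, and 3 of 32 were marked. For Trim33 it was diabetic saline replicate 3, at 28.4 normalized counts beside 24.1, 24.8 and 24.8 in the others (gap over range 0.832). For Trim14 it was the same library, at 11.2 beside 3.54, 4.63 and 4.80 (0.836). Non-diabetic replicate 3 was also at 11.2 for Trim14. With or without diabetic saline replicate 3, Trim33 was higher in diabetic Esm-1 than in diabetic saline glomeruli and did not pass the threshold (limma adjusted p from 0.221 to 0.770 when any 1 library was left out). For Trim71, which was added to this search after its values were seen, it was diabetic saline replicate 4, at 8.85 normalized counts (5 reads) beside 0 in the other 3.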

How the results depend on the processing

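No paired analysis was possible because the labels give no replicate numbers that the groups share. All values here are numbers of TRIM genes past the threshold unless called otherwise; marker term means the mean of 32 podocyte, endothelial and mesangial markers added to the fit, an alternative chosen after seeing the data, as were the common total without Rn45s, Lars2 and Mir6236 and the filter on a mean of at least 3. Diabetic against non-diabetic saline gave 4 higher and 0 lower members. With the marker term 1 (Trim30a) was higher, and leaving out each library gave 2 to 4 higher and 0 to 1 lower. The marker mean did not overlap between the groups of any comparison, so fits with this term cannot tell the markers from the group. A pseudocount of 5 and a common total per library each gave 1 lower (Trim16). For diabetic Esm-1 against diabetic saline (0 and 0), DESeq2 gave 1 lower (Trim25) and leaving out each library 0 to 1. Diabetic Esm-1 against non-diabetic saline gave 2 higher and 2 lower. The number higher was 5 without a filter, 1 with a common total, without the trend or with the 2 groups only, 0 with the marker term (Trim30a then differed by 2.56, beside 2.27), and 1 to 2 when leaving out each library. The number lower was 1 with either common total or DESeq2, 0 without the trend, without the 2 libraries of title numbers under 100 or with the marker term, and 0 to 3 when leaving out each library. Trim25 in that comparison went from a log2 difference of -0.51 to 0.20 with the marker term. Trim16, at -0.05 between diabetic Esm-1 and diabetic saline, ranged from -0.23 to 0.17 when leaving out each library. The log2 ratio of the leukocyte sums, near 0 throughout, ranged from -0.24 to 0.28 (diabetic against non-diabetic saline), -0.17 to 0.17 (diabetic Esm-1 against diabetic saline) and -0.24 to 0.29 (diabetic Esm-1 against non-diabetic saline) when leaving out each library, and was -0.0066 for the second of these without the 2 libraries of title numbers under 100. The causes were not tested. A common total shifted the median of all genes by -0.08 in both comparisons with non-diabetic saline and took the share of calls that were higher from 67.3% to 62.5% and from 47.0% to 39.4%. Depth limits the 20 genes below the filter.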
